A study of Sus scrofa with 8 samples.

Results

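The genes described here are 6 tuft cell markers, POU2F3, TRPM5, GNAT3, LRMP, ASCL2 and DCLK1. They were chosen by name, as the entries of the deposited gene annotation whose gene name is 1 of these 6, and they are 6 of the 30390 genes and 6 of the 20674 protein-coding genes with a coding transcript in it. The study made 3′ single-cell RNA sequencing libraries (10x Genomics, v2 chemistry) from dissected tracheal submucosal glands (SMG) of newborn pigs, 1 library per animal, from 4 wild-type and 4 CFTR-/- animals, which lack the CFTR anion channel. The data used here are the gene models against which the reads of all 8 libraries were counted. The same models served both genotypes, so no genotype comparison can be made from them. They hold no value per animal, the lengths below carry no replicate error, and the depth of the libraries is unknown because the count matrices were not analysed here.

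Tuft cells are chemosensory epithelial cells with a brush of apical microvilli, and in the airway they are also called brush cells. They detect bitter compounds, succinate and other luminal signals with a taste-type cascade, in which a receptor activates a G protein, a phospholipase releases stored calcium, and the calcium opens a cation channel. POU2F3 is the transcription factor that tuft cells depend on, GNAT3 (α-gustducin) and TRPM5 are the G protein and the channel of the cascade, and LRMP, ASCL2 and DCLK1 are used as further markers. In 3′ sequencing the reads lie near the 3′ end of a transcript. Cell Ranger assigns a read that crosses no splice junction to a gene only when no second gene on that strand has exons there. The last exon and the 3′ UTR are therefore the parts of each model described most closely.

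All 6 gene models were identical, exon by exon, to those of the RefSeq annotation of the same assembly, Sscrofa11.1. They held 21 coding transcripts and 0 noncoding ones, of which 20 were computational predictions and 1, that of ASCL2, was a curated record. Every one of the 21 coding sequences began with ATG, ended with a stop codon and held no stop codon inside when read from the genome. DCLK1 had 8 transcripts, LRMP had 4, POU2F3 and TRPM5 had 3 each, GNAT3 had 2 and ASCL2 had 1. The median was 3 coding transcripts per marker, 1 over all protein-coding genes and 2 over the 16549 that carry a gene name. Of all protein-coding genes 51.1% had 1 coding transcript, as ASCL2 did.

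**Figure D1:**
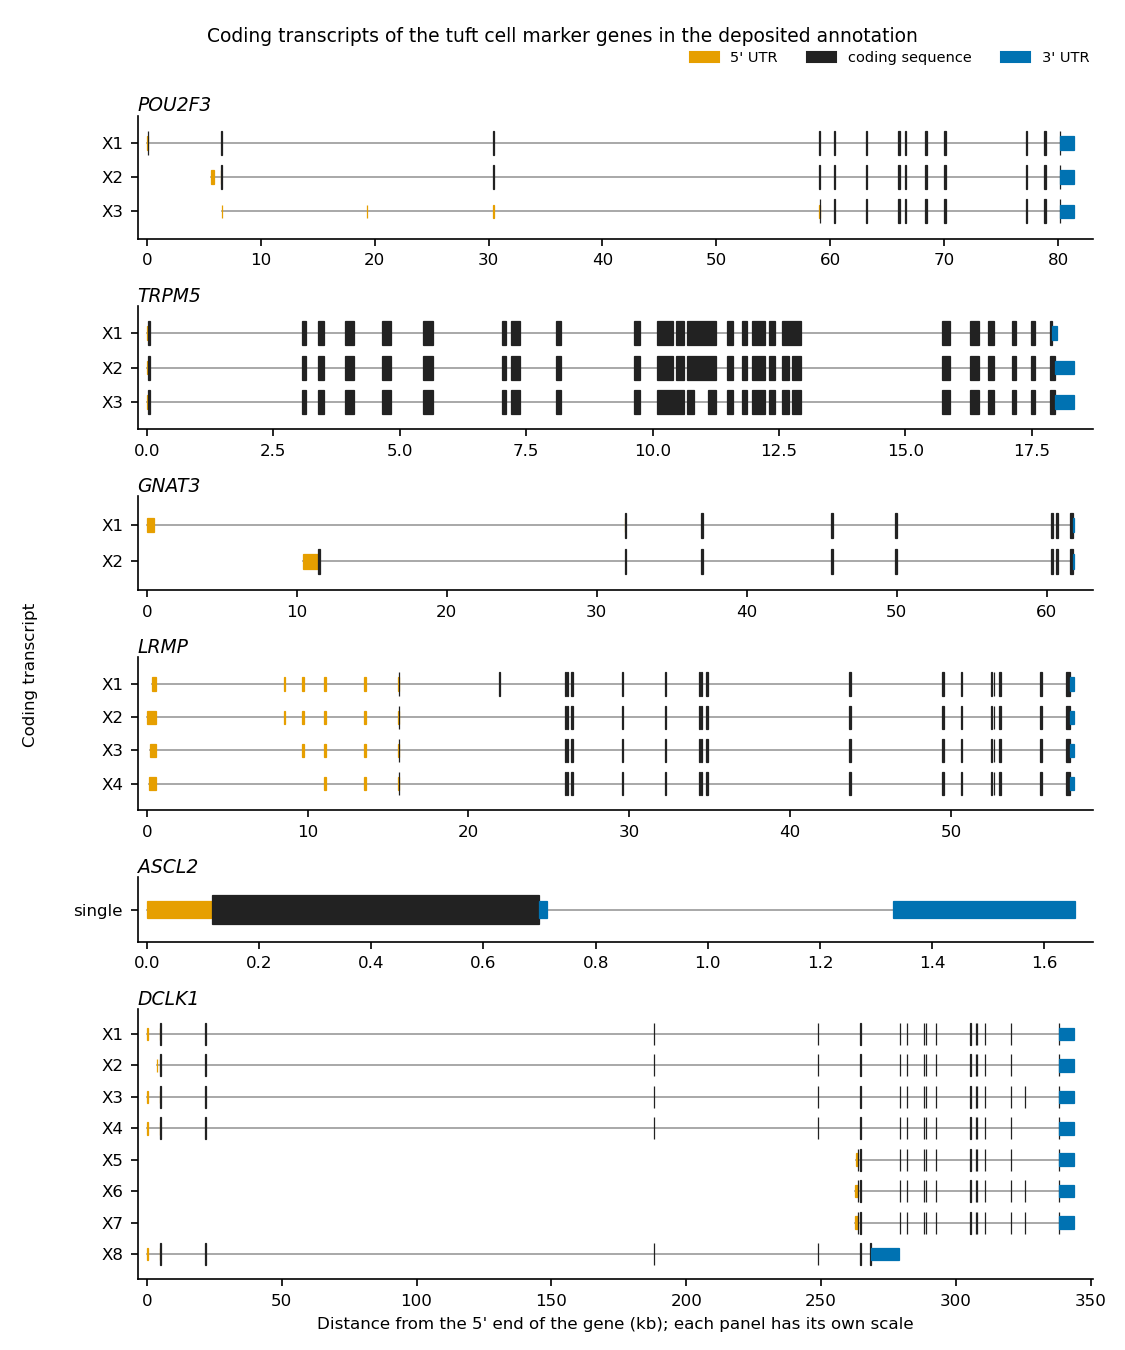
Exon plan of the 21 coding transcripts (1 line each, named by their RefSeq variant), by distance in kb from the 5′ end of each gene, with 5′ UTR in orange, coding sequence in black, 3′ UTR in blue and introns as grey lines. The 3 variants of POU2F3 share their 3′ part and differ at the 5′ end, and DCLK1 X8 ends 65.1 kb before the other 7 variants.

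The poly(A) signal is the short sequence (most often AATAAA, next ATTAAA) that directs cleavage of the transcript, and its place marks where a 3′ end can form. It was found within 50 bp before the annotated end in 4 of the 6 markers, against 60.9% of all protein-coding genes. The sites are shown on the transcribed strand of Sscrofa11.1, with the hexamer in capitals, because they lie within 50 bp of the annotated end. The POU2F3 site lies at chr9:47458216-47458245 (plus strand), that of GNAT3 at chr9:99910192-99910221 (plus), that of LRMP at chr5:48649082-48649111 (minus) and that of DCLK1 at chr11:11815260-11815289 (minus).
POU2F3: taAATAAAtttgtatagtgatgatataaac
GNAT3: acttttcaagatATTAAAggtgctgtgtga
LRMP: aaaatttattgaAATAAAgaacgattcaaa
DCLK1: ttcttaaaagttAATAAAataatagtactt
The hexamer started 48 bp before the end in POU2F3 and 33 bp in GNAT3. In LRMP the distance was 33, 23 or 22 bp for its 3 annotated ends, and it was 20 bp at the end that 7 of 8 DCLK1 variants share. GNAT3 alone among the 4 had ATTAAA. TRPM5 and ASCL2 had neither hexamer within 100 bp before any of their ends. Past the end of ASCL2 the first hexamer started 53 bp downstream, whereas none was found in the 5000 bp after either end of TRPM5, as in 6.84% of protein-coding genes. Genes with neither hexamer in the 50 bp before nor in the 5000 bp after the end made up 2.29% of all protein-coding genes. The absence of these letters says nothing about other forms of the signal.

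The 3′ UTR lengths of the markers spanned from 79 to 5654 bp. Each was counted in exon bases downstream of the stop codon, in the coding transcript whose end reaches farthest 3′, and their median was 359.5 bp, against 722 bp (interquartile range, 214 to 1880 bp) over all protein-coding genes and 911 bp over the 16549 that carry a gene name. GNAT3 was the 1 marker under 100 bp, with 79 bp, and 15.7% of all protein-coding genes were under that bound. LRMP (276 bp), ASCL2 (339 bp) and TRPM5 (380 bp) formed a middle group, longer than 29.1%, 33.0% and 35.4% of genes. POU2F3 (1231 bp) was longer than 63.8% and DCLK1 (5654 bp) longer than 96.6%. Thus 4 of the 6 markers lay below the median of all genes and 2 above it.

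**Figure D2:**
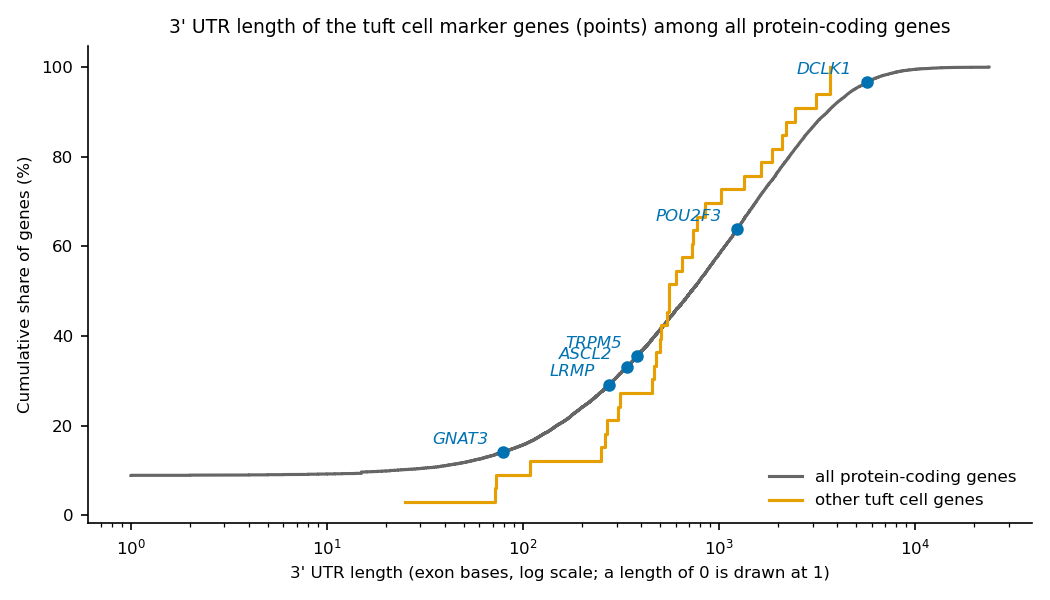
Cumulative share of genes (%) by 3′ UTR length (exon bases, log scale) for all 20674 protein-coding genes (grey) and 33 other tuft cell genes (orange), with the 6 markers as points on the grey curve. The markers run from GNAT3 at 79 bp to DCLK1 at 5654 bp, and 4 of the 6 lie left of the median of 722 bp.

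Further features of the 3′ ends were counted in the markers beside all protein-coding genes. At the end that reaches farthest 3′, 0 of 6 were followed by A-rich genome sequence within 20 bp (6 A in a row or 7 A of 10), where internal priming of the oligo-dT primer can occur, and this was found in 5.15% of all genes. In 0 of 6 did any 50-mer of the last 500 exon bases occur a second time in the genome on either strand, against 18.7% of genes, and 0 of 6 had an assembly gap within 1000 bp after the end, against 0.0242%. With 6 genes, counts of 0 do not set the markers apart from these shares. In base composition the last 500 exon bases differed widely. Their GC content was 68.8% in TRPM5 and 68.6% in ASCL2, above 98.4% and 98.3% of genes, and 28.8% in DCLK1, above 3.18% of genes. POU2F3 (36.4%), GNAT3 (36.0%) and LRMP (42.4%) lay nearer to the median over genes of 45.4%. The 500 bases were all 3′ UTR in POU2F3 and DCLK1, whereas in the other markers they included coding sequence.

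**Figure D3:**
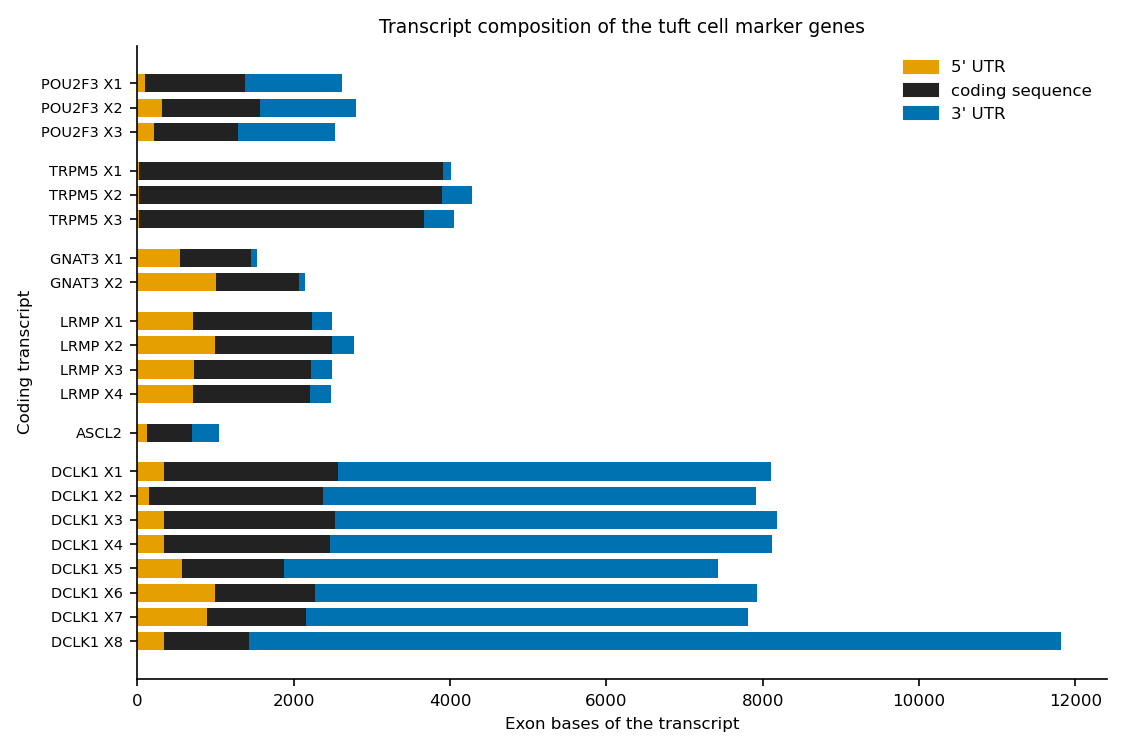
Length of the 5′ UTR (orange), coding sequence with its stop codon (black) and 3′ UTR (blue) of each of the 21 coding transcripts, in exon bases, 1 bar per transcript. The 3′ UTR is the longest part of all 8 DCLK1 transcripts, and in TRPM5 the coding sequence (3642 to 3879 bp without the stop codon) takes up most of every transcript.

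POU2F3, the POU domain transcription factor, lay on the plus strand at chr9:47376852-47458265. Its 3 variants had 13 exons each, drawn from 16 different exons of which 11 were in all 3 variants, and exons made up 3.65% of the gene's span of 81414 bp. The variants differed in their first exons and in the place where translation began. The start codons (capitals) and the 12 bases on either side are shown because they are what tells the 3 predicted proteins apart. That of X1 lies at chr9:47376930-47376956, that of X2 is spliced from 2 exons with its ATG at 47383396, and that of X3 lies at chr9:47435915-47435941.
POU2F3 X1: gcctggggcaggATGgtgaatctggaa
POU2F3 X2: aaagatatcaagATGagtggggatgta
POU2F3 X3: caaggacctgccATGatgcctggaaac
The ATG was in exon 1 of X1, exon 2 of X2 and exon 4 of X3. The coding sequences were 1287, 1251 and 1077 bp, which encode 429, 417 and 359 amino acids, and the 5′ UTRs were 90, 309 and 212 bp. X3 held a further exon of 60 bp in its 5′ UTR that the other variants lacked. From the X3 start onward the 3 models coincided, so that 1077 coding bases were common to all, along with the TGA stop at 47457034 and a last exon of 1271 bp, of which 37 were coding. The 5′ exons that separate the variants were thus far from the last exon. On the same strand the nearest genes were OAF, 13.1 kb upstream, and TMEM136, 6.57 kb downstream, and POU2F3 shared 0 exon bases with any gene.

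TRPM5, the calcium-activated cation channel that carries the current of the cascade, lay on the minus strand at chr2:1646597-1664935. Its 3 variants had 24 (X1), 25 (X2) and 25 (X3) exons in a span of 18339 bp, and its coding sequence of 3870 bp in X2 was longer than that of 93.5% of genes. All 3 started at the same ATG after a 5′ UTR of 23 bp, the shortest of the markers. They differed by introns that were spliced in some variants and exonic in others. An intron of 73 bp (chr2:1652170-1652242), whose length is not a multiple of 3, was exonic in X1 alone. An intron of 66 bp (chr2:1654463-1654528) was exonic in X3 alone, and 294 bp (chr2:1653831-1654124) that were exonic in X1 and X2 were spliced out of X3.

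The 3′ part of TRPM5 also came in 2 forms. X1 ended at 1646940 with a 3′ UTR of 101 bp, and X2 and X3 ended 343 bp farther, at 1646597, with 380 bp. Their stop codons, both TGA, were 64 bp apart in the same stretch of genome, at 1647041 for X1 and 1646977 for X2 and X3. The 27 bases around each stop (capitals) are shown because X1 and the other variants stop at different places in the last exon. They lie at chr2:1647029-1647055 and chr2:1646965-1646991, minus strand.
TRPM5 X1: acaggcttctgcTGAcggaggagggcg
TRPM5 X2 and X3: ccctcgagcgccTGAgccacgtggact
The last exon was 144 bp in X1, with 40 coding bases, and 487 bp in X2 and X3, with 104. More than 1 annotated 3′ end was found in 3 of the 6 markers (TRPM5, LRMP and DCLK1) and in 25.9% of all genes. TRPM5 shared 0 exon bases with other genes. TSSC4, annotated as a long noncoding RNA, lay 736 bp beyond its 3′ end on the opposite strand, and KCNQ1 10.4 kb beyond its 5′ end, also on the opposite strand. The nearest genes on its own strand were LOC110259220, 22.0 kb downstream, and the noncoding LOC110259223, 129.6 kb upstream.

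GNAT3, the G protein α subunit of the cascade, lay on the plus strand at chr9:99848406-99910236, with 2 variants of 8 exons each. The variants differed only at the 5′ end, where X1 had a first exon of 501 bp and X2 one of 1117 bp, and they shared the other 7 exons. X2 began translation in its first exon and encoded 354 amino acids, and X1 began in its second exon and encoded 302. The start of X2 lies at chr9:99859820-99859846, and that of X1 is spliced from 2 exons with its ATG at 99880319; the ATG is in capitals.
GNAT3 X2: taacactacaagATGggaagcagcatt
GNAT3 X1: attgtgaaacaaATGaagatcatccat
The 906 coding bases of X1 were all part of the 1062 of X2. Both variants ended at the TAA stop at 99910157, followed by the 79 bp of 3′ UTR, in a last exon of 270 bp, of which 188 were coding. The median last exon of all protein-coding genes was 1081 bp. In contrast, the 5′ UTR of X2 (999 bp) was longer than that of 86.1% of genes. Past the annotated end, the next AATAAA or ATTAAA started 699 bp downstream. The nearest genes on the same strand were far away, with SEMA3C 415.7 kb upstream and the noncoding LOC106508391 365.3 kb downstream, and GNAT3 shared 0 exon bases with any gene.

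LRMP encodes a membrane protein of the endoplasmic reticulum that binds the receptors through which inositol trisphosphate releases calcium. It was the only 1 of the 6 markers that shared exon bases with another gene on its own strand, which 3.36% of protein-coding genes did. The gene lay on the minus strand at chr5:48649067-48706727, inside the span of LOC106507512 (chr5:48649078-48776681, minus strand) but for its last 11 bp. LOC106507512 is a predicted protein-coding gene with 2 transcripts, and RefSeq gives its product the same name as that of LRMP. Of the 2798 exon bases of LRMP, 2760 (98.6%) were also exon bases of LOC106507512. A share of at least 90% was found in 0.276% of all protein-coding genes, 57 in number.

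The unshared remainder was 38 bases in 2 places. They were the last 11 bases of the gene (chr5:48649067-48649077) and an exon of 27 bp (chr5:48684792-48684818) that only LRMP X1 contained. The last exon of the variants X2 and X4 was 520 bp long, of which 509 (97.9%) were shared, that of X3 was 510 bp with 509 shared (99.8%), and that of X1, 509 bp, was shared whole. A last exon shared with a gene on the same strand was found in 1.63% of all protein-coding genes. Of the last 500 bases of the spliced transcript, 489 were shared in X2 and X4, 499 in X3 and 500 in X1. The stretch in which 3′ reads of LRMP would fall was thus almost wholly within exons of both genes. How many reads this concerned was not tested.

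**Figure D4:**
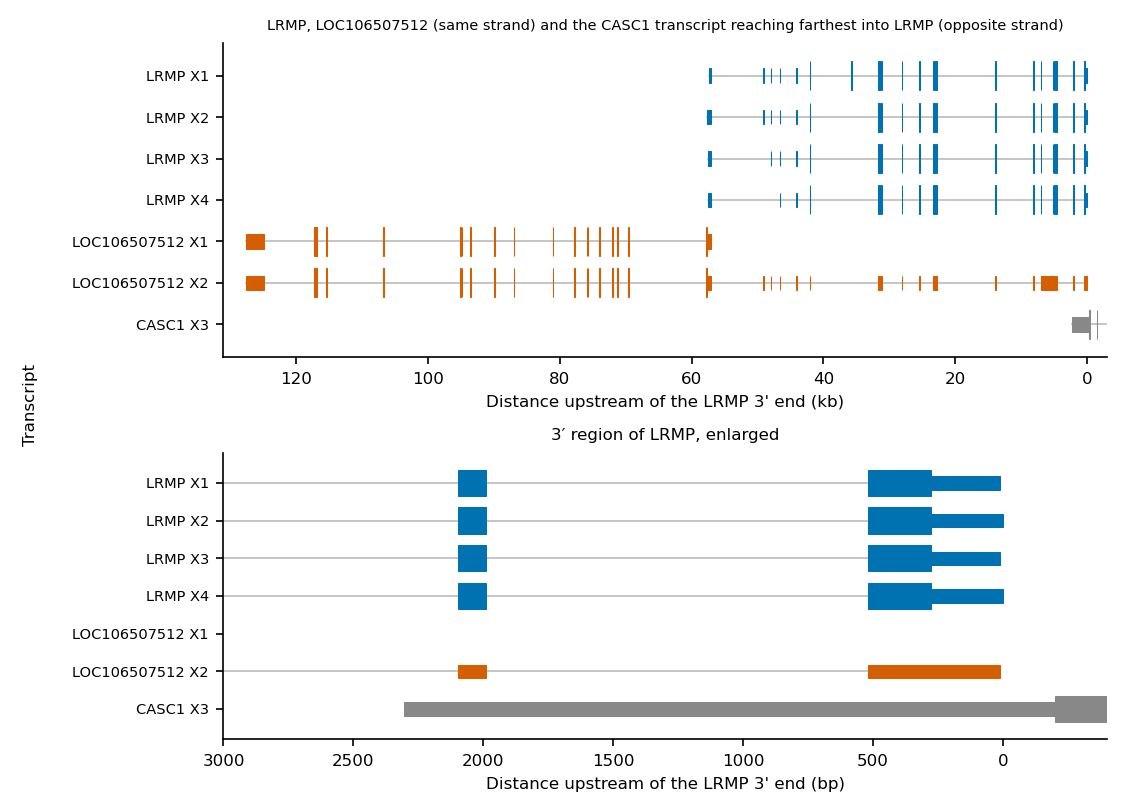
Exons of the 4 LRMP variants (blue), the 2 variants of LOC106507512 on the same strand (orange) and the CASC1 variant that reaches farthest into LRMP (X3) on the opposite strand (grey), by distance upstream of the LRMP 3′ end in kb (top) and bp (bottom), with coding sequence as tall and UTR as low boxes. LOC106507512 X2 runs through the last exon of LRMP as untranslated sequence and stops 11 bp before the end of LRMP X2 and X4.

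The same bases had different roles in the 2 genes. LOC106507512 X2 had 35 exons and 10061 bp, with a coding sequence of 2256 bp that ended upstream of the first LRMP exon, followed by a 3′ UTR of 5041 bp in 18 exons. All 2760 shared bases lay in this 3′ UTR, and they included 1494 bases that were coding in LRMP, the whole coding sequence of X2, X3 and X4. In LRMP X1 1494 of 1521 coding bases were shared, the difference being the exon of 27 bp. LOC106507512 X1 had 18 exons, ended at 48706191 and shared 537 bases with LRMP. Of the 28 different exons of LRMP, 15 were identical to an exon of LOC106507512 X2.

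Splice junctions held more that belonged to LRMP alone. LRMP had 25 different junctions and LOC106507512 had 36, of which 17 were common and 8 were in LRMP alone. The junction nearest to the 3′ end among these 8 was that of an intron of 108 bp (chr5:48654075-48654182), at least 769 spliced bases from the end. It was 1 of 4 such junctions whose introns were exonic in LOC106507512, at 769, 832, 1300 and 1328 spliced bases from the end, and all 4 were in every LRMP variant. The remaining 4 lay at 1738 to 2147 spliced bases. None of the 8 was thus within the last 500 bases.

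Among themselves the 4 LRMP variants differed mainly in the 5′ UTR. They had 23, 22, 21 and 20 exons (X1 to X4) and 5′ UTRs of 706, 998, 729 and 707 bp, but 1 start codon, at 48691067, and 1 stop codon, TGA, at 48649343. X1 encoded 507 amino acids and the others 498, with the exon of 27 bp as the difference. The 3′ UTRs were 265, 276, 266 and 276 bp, since the 3 annotated ends lay within 11 bp of each other. LRMP was also the 1 marker that shared exon bases with a gene on the opposite strand, as 17.1% of genes did. CASC1 (chr5:48555637-48651370, plus strand, 14 transcripts) covered 628 of its exon bases (22.4%), including all 520 of the last exon. This full overlap came from the CASC1 variant X3 alone. The other CASC1 variants ended inside the last exon of LRMP, 504 bp upstream of the LRMP end, and so still covered the whole LRMP 3′ UTR. Reads from the opposite strand are counted apart where the counting uses strand, as Cell Ranger does. Other genes were distant, with ETFRF1 93.5 kb downstream and the noncoding LOC110260723 1729.2 kb upstream on the same strand.

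ASCL2, a basic helix-loop-helix transcription factor known from intestinal stem cells, was the smallest model. It lay on the minus strand at chr2:1558459-1560112, with 1 transcript of 2 exons (714 and 324 bp) and 1 intron of 616 bp. The 5′ UTR of 117 bp, the coding sequence of 579 bp (193 amino acids) and the TGA stop at 1559414 were all in exon 1. The 3′ UTR of 339 bp was therefore made of 15 bp in exon 1 and the whole last exon of 324 bp. A stop codon before the last exon was found in 1 of the 6 markers and in 5.66% of all genes. ASCL2 and TRPM5 lay on the same strand of chromosome 2, 86.5 kb apart, with LOC110259220 between them, 40.6 kb from ASCL2. TH, the gene of tyrosine hydroxylase, was 52.3 kb downstream, and ASCL2 shared 0 exon bases with any gene.

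DCLK1, a kinase with doublecortin domains that bind microtubules, was the largest and most varied model. It spanned 343828 bp on the minus strand at chr11:11815258-12159085, more than 97.3% of genes, and its 19783 exon bases exceeded those of 99.4% of genes. Its 8 variants drew on 27 different exons, of which 1 was in all 8 and 9 were in 1 variant only, and 95 coding bases were common to all. They fell into 3 forms by their coding sequence. X1 to X4 were long, with 17 or 18 exons and 709 to 741 amino acids. X5 to X7 began at an inner start codon 258.6 kb farther 3′ and encoded 423 or 434 amino acids in 13 to 15 exons. X8 had the start of the long form but 7 exons and 363 amino acids.

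The 2 start codons of DCLK1 are shown in capitals within 27 bases because they separate the long and short forms. That of X1 to X4 and X8 lies at chr11:12154112-12154138 and that of X5 to X7 at chr11:11895469-11895495, both on the minus strand.
DCLK1 X1 to X4 and X8: tttcgttccatcATGtccttcggcaga
DCLK1 X5 to X7: gaggctgtgtccATGttagagctcatc
The stop codon also varied. X1, X2 and X5 used TAA at 11820805, X3, X4, X6 and X7 used TGA 107 bp before it at 11820912, and X8 used TAA at 11890723. The surroundings of the stops (chr11:11820793-11820819, chr11:11820900-11820926 and chr11:11890711-11890737, minus strand) were as follows.
DCLK1 X1, X2 and X5: aattcaccctttTAAtaagaagtccta
DCLK1 X3, X4, X6 and X7: gcaacccggatgTGAggagccggtaca
DCLK1 X8: ggagactcagtgTAAaagagacaatgg
An exon of 74 bp (chr11:11833394-11833467) was present in X3, X6 and X7, and the last exon of X4 was 11 bp longer (5723 bp) than the 5712 bp of the other 6 that share its end. The 3′ UTR was accordingly 5547 bp in X1, X2 and X5 and 5654 bp in X3, X4, X6 and X7.

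X8 ended 65.1 kb before the other DCLK1 variants, at 11880337, and its last exon of 10443 bp held 54 coding bases and a 3′ UTR of 10386 bp. Its annotated end was unlike the common one. The last 15 bases of X8 in the genome were all A, 17 of the last 20 were A, and the 20 bp after the end held 11 A and met the A-rich rule. No AATAAA or ATTAAA lay in its last 50 bp, the nearest starting 54 bp before the end. The common end, with AATAAA 20 bp before it, held 10 A in the last 20 bases and 8 in the next 20, and did not meet the rule. DCLK1 shared 0 exon bases with any gene, and its nearest neighbors on the strand were MAB21L1, 293.6 kb downstream, and LOC100624094, 44.0 kb upstream.

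The evidence notes of RefSeq can give how many RNA-seq samples contained reads across all introns of a predicted transcript. Where an evidence note gave no such number, the transcript was counted as 0. For the best transcript of each gene, the median over the 16936 protein-coding genes with an evidence note was 107 samples. TRPM5 had 1 sample for each of its 3 variants. GNAT3 had 5 for X1 and was counted as 0 for X2, and POU2F3 had 11, 10 and 5 for X1 to X3. These values exceeded those of 12.5% (TRPM5), 15.4% (GNAT3) and 20.6% (POU2F3) of genes, by the best variant. The genes below TRPM5 were all counted as 0, so the median and these shares depend on that rule. LRMP had 59 (X1) to 136 (X2) samples and DCLK1 had 7 (X7) to 133 (X8), and their best variants exceeded 56.7% and 55.8% of genes. For GNAT3 X2 the record noted 1 mRNA, 29 proteins and RNA-seq reads over 98% of its length. The curated ASCL2 record carried no evidence note. Long sequencing reads were noted for LRMP (14 to 31 reads) and DCLK1 (61 to 352 reads) and for 0 transcripts of POU2F3, TRPM5 and GNAT3. By the best variant, the markers with a note thus fell into a group with few supporting samples and a group with many. The number requires support for all introns and was not adjusted for how many introns a transcript has. DCLK1 X8 had 7 exons. The other DCLK1 variants, with 13 to 18 exons, had 7 to 107 samples, the lowest of which was within the range of POU2F3. The tissues of these samples are not given in the annotation, so the counts describe the evidence for the models and not levels in SMG.

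**Figure D5:**
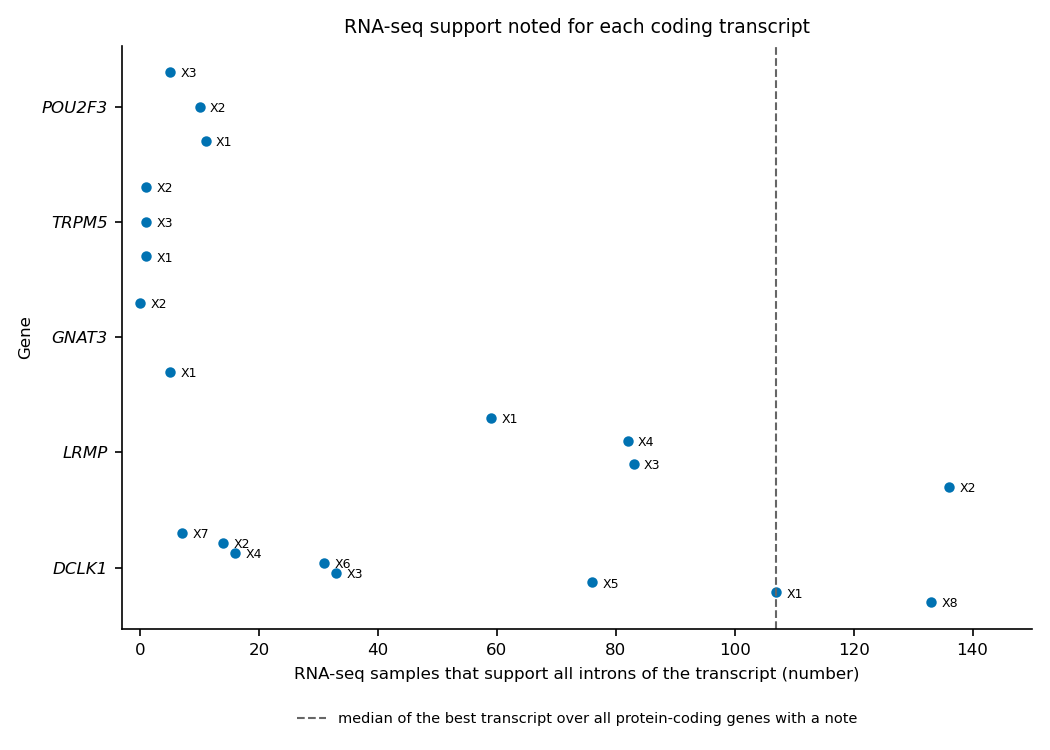
Number of RNA-seq samples noted by RefSeq as supporting all introns (counted as 0 where no number is given), 1 labelled point per predicted coding transcript (ASCL2 has no note). The dashed line is the median of the best transcript over all protein-coding genes with an evidence note (107). All variants of POU2F3, TRPM5 and GNAT3 are at 11 samples or fewer, and 1 LRMP and 1 DCLK1 variant lie above the line.

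LOC106507512, the partner of LRMP, had 9 supporting samples for each of its 2 variants. For X2, the variant that runs through the LRMP exons, 13 expressed sequence tags and 10 long reads were noted, with reads over 97% of its length. LRMP X2 had 22 expressed sequence tags and 31 long reads. Since 17 junctions are common to both genes, part of this evidence can bear on either model.

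The other genes of the tuft cell program were read in the same way, from a list of 33 genes in 6 groups, all 33 of which were found. POU2AF2 and POU2AF3, coactivators of POU2F3, were present as C9H11orf53 and COLCA2. The median 3′ UTR of the 33 genes was 558 bp (25 to 3702 bp), between the 359.5 bp of the markers and the 722 bp of all genes. The 3′ UTR was under 100 bp in 3 genes (9.09%, against 15.7% of all protein-coding genes). They were MATK, a tyrosine kinase, with 25 bp, CHAT, the enzyme of acetylcholine synthesis, with 72 bp, and GNG13, the G protein γ subunit that partners GNAT3, with 73 bp. The longest was that of PLCB2, the phospholipase of the cascade, with 3702 bp. MATK was the 1 gene of the list with exon bases shared on the same strand, 84 bases with RAX2, all in its last exon, where 3.36% of all protein-coding genes shared such bases. With a gene on the opposite strand 8 of the 33 shared exon bases, against 17.1% of all. A poly(A) signal was found in the last 50 bp in 23 of 33 (60.9% of all protein-coding genes), A-rich sequence after the end in 3 (5.15% of all) and more than 1 annotated 3′ end in 11 (25.9% of all).

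By group, the median 3′ UTR was 726.5 bp in the 8 taste transduction genes, 725 bp in the 7 transcription factors and coactivators, 550.5 bp in the 6 mediators and receptors, 456 bp in the 5 kinases and adaptors and 313 bp in the 5 genes of eicosanoid synthesis. The 2 cytoskeletal genes, AVIL and VIL1, which encode actin-binding proteins of the microvilli, had 467 and 3107 bp. Within the taste cascade, the members that act with GNAT3 and TRPM5 thus spanned from 73 bp (GNG13) to 3702 bp (PLCB2), with GNB3, the G protein β subunit, at 503 bp and ITPR3, the calcium release receptor, at 1025 bp. A poly(A) signal was found in all 5 eicosanoid genes, in 6 of the 7 transcription genes, 6 of the 8 taste transduction genes, 3 of the 5 kinases and adaptors, 1 of the 2 cytoskeletal genes and 2 of the 6 mediators and receptors, where the share over all protein-coding genes was 60.9%.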

How the data were processed

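Libraries for 3′ single-cell RNA sequencing came from SMG of newborn pigs, 4 wild-type and 4 CFTR-/-, with 1 animal per library. The deposited values are coordinates in bp, counted from 1, of the authors' edited gene annotation for Sscrofa11.1, 1 table of 1930753 entries for all 8 libraries, 689 of them for the markers. The authors converted the RefSeq annotation to GTF, extended or supplied 3′ UTRs, trimmed overlaps on the same strand, changed the names of genes and which genes were included, and used Ensembl for the mitochondrial genes. They then counted reads with Cell Ranger (version 3.0.2, submitters' processing notes). Count matrices were not analysed here, so depth per library is unknown and no test over animals was made. Columns of per-sample values left unused numbered 0.

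From the annotation, exons, coding sequence (without the stop codon), UTRs, annotated ends and exon bases shared with other genes were computed, per gene for the coding transcript that ends farthest 3′ (ties were settled by the most exon bases). Sequences came from the RefSeq genome of the same assembly, and the RefSeq evidence notes were read from the deposited annotation. Poly(A) signals were AATAAA or ATTAAA on the transcribed strand in the last 50 bp. The A-rich rule was 6 A in a row or 7 of 10 within 20 bp after the end, an assembly gap was at least 10 N within 1000 bp, and 50-mers were compared within exons with the whole genome on both strands. Background shares are over all 20674 protein-coding genes. The genes named were the 6 markers, every gene that shares exon bases with them, the nearest gene on the same strand on each side, and, of the 33 other tuft cell genes, those with a 3′ UTR under 100 bp, same-strand sharing, another name, or the shortest or longest 3′ UTR. TSSC4, KCNQ1, AVIL, VIL1, GNB3 and ITPR3 were named after their values were seen. The markers and lists were chosen with earlier results of these data known. The measures were tested on simulated gene models and sequence (18 of 18 checks passed). Python 3.11.15, numpy 2.4.6, pandas 2.3.3, numba 0.67.0, pysam 0.24.0 and matplotlib 3.10.9 were used.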

Additional observations from a re-analysis of the deposited data

How the results depend on the processing

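The 8 counts and medians over the markers were recomputed under 19 alternatives, of which 17 kept the value within the set limits (within 1.5 times for counts) and 2 moved it. The median 3′ UTR of the markers was 302 bp instead of 359.5 bp when each gene was read by its longest coding sequence, since TRPM5 was then read by X1 with 101 bp and LRMP by X1 with 265 bp. With a bound of 50 bp in place of 100 bp, 0 markers instead of 1 had a short 3′ UTR, as GNAT3 lies between the bounds. A poly(A) signal was found in 3 markers instead of 4 with AATAAA alone, and the 21 coding transcripts held 17 different chains of coding segments. The count for same-strand sharing stayed at 1 with protein-coding partners only, by gene spans, on either strand and in the RefSeq models. No paired analysis was possible because gene models carry no values of single animals, and for the same reason no replicate could be left out. Whether shared exons or a short 3′ UTR changed a count in any library was not tested.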
